A study of Mus musculus with 12 samples.

Results

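The comparison described here is the loss of the histone variant H2A.Z in mouse muscle that had lost its nerve, and its members are the 6 denervated libraries among the 12 of the study, chosen by their labels. Both groups of 3 came from the tibialis anterior, a lower-leg muscle, of C57BL/6 mice aged 7 weeks, taken 48 h after the left sciatic nerve had been cut. Control mice (WT) carried both H2A.Z genes flanked by loxP sites (H2A-Z.1 flox/flox : H2A-Z.2 flox/flox) and no Cre. Mutant mice (dKO) carried H2A-Z.1-/- : H2A-Z.2-/- with HSA Cre, a recombinase driven by the promoter of human skeletal actin. This promoter is known to work in muscle fibres, while the libraries hold RNA of all cells of the whole muscle. The unoperated legs of the opposite side gave the 6 innervated libraries, 3 per genotype. The question is which genes differ in RNA level with the loss of H2A.Z in denervated muscle. Because the WT mice carried no Cre, the loss of H2A.Z and the presence of Cre cannot be told apart here. The labels call the samples biological replicates without tying legs to animals. A p-value here sets a difference only against the spread among these samples. The fit behind it counts the 12 libraries as independent, which the labels do not settle.

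H2A.Z replaces the ordinary histone H2A in nucleosomes beside transcription starts, enhancers and other regulatory DNA. Dedicated remodelling complexes place it there, and it is known both in active promoters and in genes held ready for a signal. Cutting the motor nerve is such a signal: fibres switch on acetylcholine receptor genes away from the old synapse, the myogenic factors, and the ubiquitin ligases of atrophy. Both H2A.Z proteins are made from genes of their own, H2afz for H2A.Z.1 and H2afv for H2A.Z.2.

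Because the variant sits at transcription starts, the start regions of 5 genes that the results below turn on are shown. Each window runs from 250 bases before to 50 bases after the start (RefSeq, GRCm38.p6, 5′ to 3′ on the gene's strand), with CG dinucleotides in capitals. The windows are Ctnna3 (chr10:63429848-63430147, plus strand, 1 of 3 windows), Plekhb1 (chr7:100662345-100662644, minus strand, 1 of 2 windows), Mstn (chr1:53061390-53061689, plus strand), Fhl1 (chrX:56779433-56779732, plus strand, 1 of 2 windows) and Mthfd2 (chr6:83317555-83317854, minus strand).
Ctnna3: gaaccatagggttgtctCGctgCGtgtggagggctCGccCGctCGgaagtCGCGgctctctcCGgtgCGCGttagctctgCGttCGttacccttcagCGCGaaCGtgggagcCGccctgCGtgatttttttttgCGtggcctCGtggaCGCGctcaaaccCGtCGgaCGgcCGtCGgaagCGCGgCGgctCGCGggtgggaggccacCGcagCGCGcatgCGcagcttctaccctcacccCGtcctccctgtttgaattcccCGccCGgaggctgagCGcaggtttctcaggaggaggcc
Plekhb1: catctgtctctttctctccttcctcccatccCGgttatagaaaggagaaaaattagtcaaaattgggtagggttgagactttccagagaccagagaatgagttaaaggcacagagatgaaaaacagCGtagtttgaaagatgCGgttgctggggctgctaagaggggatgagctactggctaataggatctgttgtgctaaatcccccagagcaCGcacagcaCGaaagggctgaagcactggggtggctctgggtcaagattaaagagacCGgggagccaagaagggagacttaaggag
Mstn: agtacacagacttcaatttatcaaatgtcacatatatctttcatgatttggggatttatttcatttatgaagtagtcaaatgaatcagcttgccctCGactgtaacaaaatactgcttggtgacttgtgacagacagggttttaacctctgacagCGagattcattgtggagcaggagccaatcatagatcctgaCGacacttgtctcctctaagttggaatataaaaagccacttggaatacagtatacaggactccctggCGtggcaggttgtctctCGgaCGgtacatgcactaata
Fhl1: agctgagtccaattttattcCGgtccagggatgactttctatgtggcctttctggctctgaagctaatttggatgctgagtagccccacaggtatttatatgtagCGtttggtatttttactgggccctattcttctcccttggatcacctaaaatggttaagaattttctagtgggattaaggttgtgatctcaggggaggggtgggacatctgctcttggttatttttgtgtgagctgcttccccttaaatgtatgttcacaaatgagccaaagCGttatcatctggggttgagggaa
Mthfd2: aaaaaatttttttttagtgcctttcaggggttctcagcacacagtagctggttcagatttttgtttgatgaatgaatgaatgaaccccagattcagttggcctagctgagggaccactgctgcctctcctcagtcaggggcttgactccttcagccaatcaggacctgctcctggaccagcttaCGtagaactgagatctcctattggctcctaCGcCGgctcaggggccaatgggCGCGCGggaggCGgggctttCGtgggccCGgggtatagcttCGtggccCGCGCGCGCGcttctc
The Ctnna3 window holds 39 CG dinucleotides and that of Mthfd2 holds 15, while Plekhb1 and Mstn hold 6 each and Fhl1 holds 3. Over all 32851 windows of the table the median is 7, with quartiles of 3 and 20. The sequence TATAAA, searched on both strands, occurs in the Mstn and Fhl1 windows and in 13.6% of all windows. The other 2 annotated Ctnna3 windows hold 7 and 2 CG dinucleotides, and which start is used in these muscles was not tested. A window was found for 48 of the 62 genes that differ between genotypes, under the 80% needed, so a comparison of promoter composition between these genes and all others is void.

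H2afv (ENSMUSG00000041126, chromosome 11) checks the genotype labels. Levels are in CPM (counts-per-million of the TMM-scaled library total). They were 21.6, 21.6 and 18.9 in the WT libraries and 5.40, 4.81 and 4.78 in the dKO libraries. The groups stand far apart, and H2afv fell by 2.05 on the log2 scale (SE 0.12, edgeR adjusted p = 5.23e-06), to 24.1% of WT. H2afz (ENSMUSG00000037894, chromosome 3) was at 11.2, 7.54 and 10.4 CPM in WT and 7.84, 5.83 and 6.01 CPM in dKO. Its groups overlap, because the first dKO library lies above the second WT library. The difference of H2afz was −0.57 (SE 0.19, edgeR adjusted p = 0.287), and its count is uncertain because a near-identical copy lies within transcripts of Tmcc1. On the deposited signal per kb of gene length, H2afz was at 685, 515 and 520 and H2afv at 242, 218 and 212 in dKO, against 981, 645 and 896 for H2afz and 976, 946 and 832 for H2afv in WT. RNA of both genes was thus still counted in dKO muscle, more of H2afz than of H2afv per kb. The remaining RNA of other cell types and of fibres cannot be told apart in whole muscle.

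The 6 libraries held 68488996 to 87753152 counts each and correlated with each other at 0.9831 to 0.9933 (log2 CPM). The second WT library stood apart in the relation of its counts to the GC content of genes (r = −0.364, against −0.155 to 0.133 in the other 5). Of 31057 genes, 17201 had enough counts to be tested. A log2 difference below is dKO over WT, and higher, lower, rose and fell mean that edgeR's quasi-likelihood test gave a Benjamini-Hochberg adjusted p below 0.05. That test called 62 genes (0.36% of those tested), 13 higher in dKO (0.0756%) and 49 lower (0.285%). The called decreases were also the steeper ones, with 18 genes at 2-fold or more (0.105%) against 2 of the increases (0.0116%). Before adjustment 1683 genes (9.78%) had p below 0.05, beside about 860 by chance, and 793 of these had a higher (4.61%) and 890 a lower value (5.17%). Leaving aside H2afv, the lower genes had a median log2 difference of −0.80, or 57.2% of WT, and the higher genes one of 0.58, or 149% of WT. All 62 genes had WT and dKO libraries that do not overlap, as had 14% of tested genes, which largely follows from the call.

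**Figure D1:**
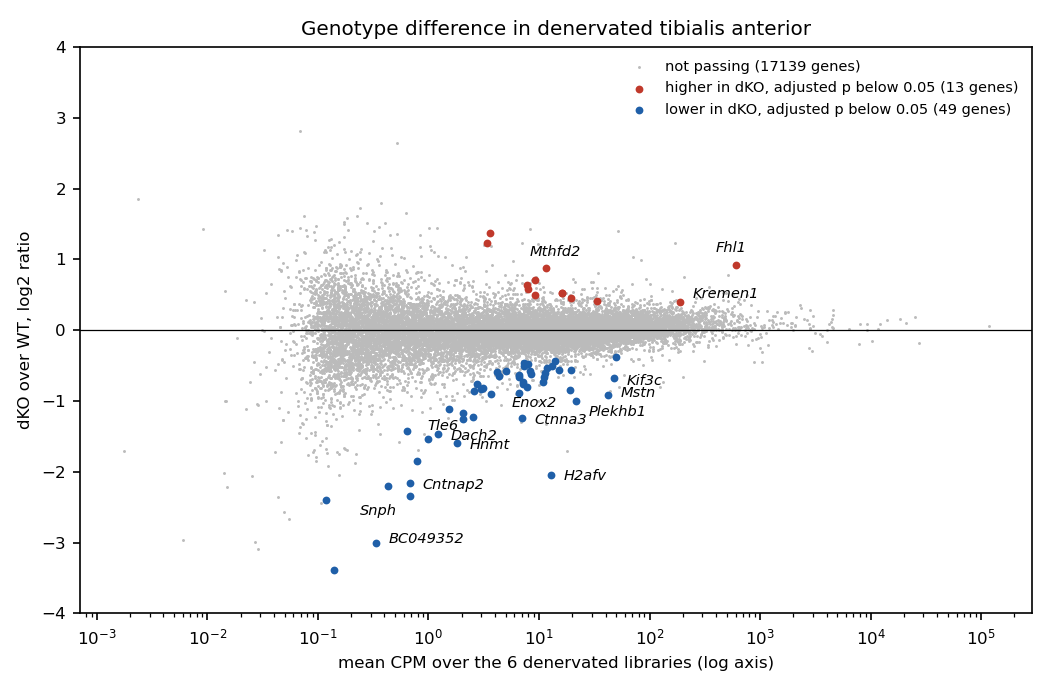
Log2 ratio of dKO over WT in denervated legs (vertical) against mean CPM over the 6 libraries (horizontal, log axis) for all tested genes, with the 13 higher genes in red and the 49 lower genes in blue. The blue points reach lower values than the red points reach high ones, and Fhl1 is the most abundant called gene.

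The count of called genes leaned on single libraries. It was 38, 42 and 13 without WT libraries 1, 2 and 3, and 22, 11 and 32 without dKO libraries 1, 2 and 3. In all, 11 genes stayed called whichever of the 6 was left out: H2afv, Ctnna3, Plekhb1, Hnmt, Tle6, Ttc23, Ccs, Cntnap2, Snph, BC049352 and 1300002K09Rik. Of the 62 themselves, 29, 34 and 12 were still called without WT libraries 1, 2 and 3, and 19, 11 and 24 without dKO libraries 1, 2 and 3. All 62 kept their direction under each of 22 other ways of running the comparison. Since their groups do not overlap, leaving out 1 library could hardly turn a direction, and the other ways reuse the same counts. With only the 6 denervated libraries in the model, which leaves fewer degrees of freedom, 4 genes were called: H2afv, Ctnna3, Plekhb1 and, higher in dKO, Csrp3.

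Among the higher genes, Fhl1 (ENSMUSG00000023092, X chromosome) stood out by its abundance. It encodes a four-and-a-half LIM domain protein of the sarcomere, and its human counterpart is mutated in X-linked myopathies. The WT libraries were at 452, 463 and 353 CPM and the dKO libraries at 938, 816 and 650 CPM. The lowest dKO library exceeds the highest WT library, and Fhl1 rose by 0.92 (SE 0.17, edgeR adjusted p = 0.0382), to 190% of WT. Its adjusted p was between 0.0627 and 0.15 with any of the 3 WT libraries or with dKO library 1 or 2 left out, at log2 values of 0.80 to 1.00. Csrp3, the muscle LIM protein of the Z disc, missed the threshold with 32.6, 27.1 and 26.0 CPM in WT and 83.9, 76.5 and 65.2 CPM in dKO (1.40, SE 0.28, edgeR adjusted p = 0.055). The groups of Csrp3 do not overlap either, and it and Fhl1 are 2 of the 16 LIM, ankyrin and mechanosensing genes tested. Of these 16, only Fhl1 passed, 13 had values above 0 and the median was 0.215, against a median of −0.003 and 49.3% above 0 over all tested genes. That median was 0.507 without WT library 1 and 0.388 without dKO library 3.

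Mthfd2 (ENSMUSG00000005667, chromosome 6), a mitochondrial folate enzyme that supplies one-carbon units, rose by 0.87 (SE 0.15, edgeR adjusted p = 0.032). Its libraries were at 9.05, 8.12 and 7.51 CPM in WT and 17.0, 16.0 and 12.2 CPM in dKO. All 3 dKO values are above all WT values, with the third dKO library the lowest of them. Without dKO library 1 or 2, or any 1 WT library, its adjusted p was between 0.0503 and 0.15. Of the 30 tested genes of serine and one-carbon metabolism and the integrated stress response, Mthfd2 alone passed, and the median was 0.025. Shmt1, which passes a carbon from serine to folate, had a value of −0.56 that did not pass (edgeR adjusted p = 0.093).

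A pair of the higher genes serve the upkeep of DNA. Rnaseh2b, a subunit of the enzyme that cuts ribonucleotides out of DNA, was at 6.22, 6.17 and 5.89 CPM in WT and 8.40, 10.1 and 9.96 CPM in dKO (0.64, SE 0.10, edgeR adjusted p = 0.0205). Msh3, a mismatch-repair protein, was at 11.7, 15.4 and 12.4 CPM in WT and 19.3, 19.2 and 18.4 CPM in dKO (0.52, SE 0.09, edgeR adjusted p = 0.0374). For both genes the groups are separate, with the second WT library of Msh3 above its fellows. They are the called members among 26 DNA repair genes tested, of which 15 had values above 0 at a median of 0.023. Without 1 library the adjusted p reached 0.117 for Rnaseh2b and 0.147 for Msh3, and only WT library 2 could be left out with both still called. Exons of Rnaseh2b overlap Dleu7 on the other strand, and the strand setting of the counting is not given in the sources used here. Poll, a DNA polymerase outside the list of 26 DNA repair genes, was lower (−0.53, SE 0.07, edgeR adjusted p = 0.0106). So was Obfc2b, a binder of single-stranded DNA also outside it (−0.60, SE 0.09, edgeR adjusted p = 0.0193). With 1 library left out the edgeR adjusted p reached 0.0931 for Poll and 0.132 for Obfc2b.

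Among the rest were Kremen1, Tiam2 and Ralgps1. Kremen1, a receptor for Dickkopf proteins that damps Wnt signalling, was at 159, 163 and 165 CPM in WT and 217, 219 and 204 CPM in dKO (0.40, SE 0.07, edgeR adjusted p = 0.0293). Tiam2, an activator of the GTPase Rac, was at 29.9, 29.1 and 27.4 CPM in WT and 37.8, 37.9 and 39.0 CPM in dKO (0.41, SE 0.07, edgeR adjusted p = 0.0361). Ralgps1, an activator of Ral GTPases, was at 5.77, 6.89 and 6.40 CPM against 10.1, 8.63 and 9.75 CPM (0.58). All 3 show modest rises over tight replicates. Each lost its call when single libraries were left out, with the adjusted p reaching 0.136 for Kremen1, 0.143 for Tiam2 and 0.146 for Ralgps1. Tfb1m, whose exons overlap Tiam2 on the other strand, had a value of 0.37 that did not pass (edgeR adjusted p = 0.109). Isoc1, an isochorismatase-domain protein, was higher by 0.52, the mitochondrial coiled-coil gene Ccdc90b by 0.46 and BC048679, with no role known here, by 1.23. BC048679 was at 2.59, 1.87 and 1.64 CPM in WT and 5.70, 5.54 and 3.08 CPM in dKO, and its edgeR adjusted p of 0.0497 lies at the edge of the threshold. With 1 library left out the edgeR adjusted p reached 0.114 for Isoc1, 0.158 for Ccdc90b and 0.237 for BC048679. The other 3 higher genes have provisional names in the deposited counts. They are 1300002K09Rik, 3200002M19Rik and 2010012O05Rik, named Stra6l, Anapc15 and Borcs7 in the GENCODE M21 annotation. Of these, 1300002K09Rik was the gene with the highest log2 value (1.38, SE 0.17, edgeR adjusted p = 0.00371) and is named here after its values were seen. It was at 1.59, 2.47 and 1.88 CPM in WT and 5.59, 5.28 and 4.62 CPM in dKO.

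**Figure D2:**
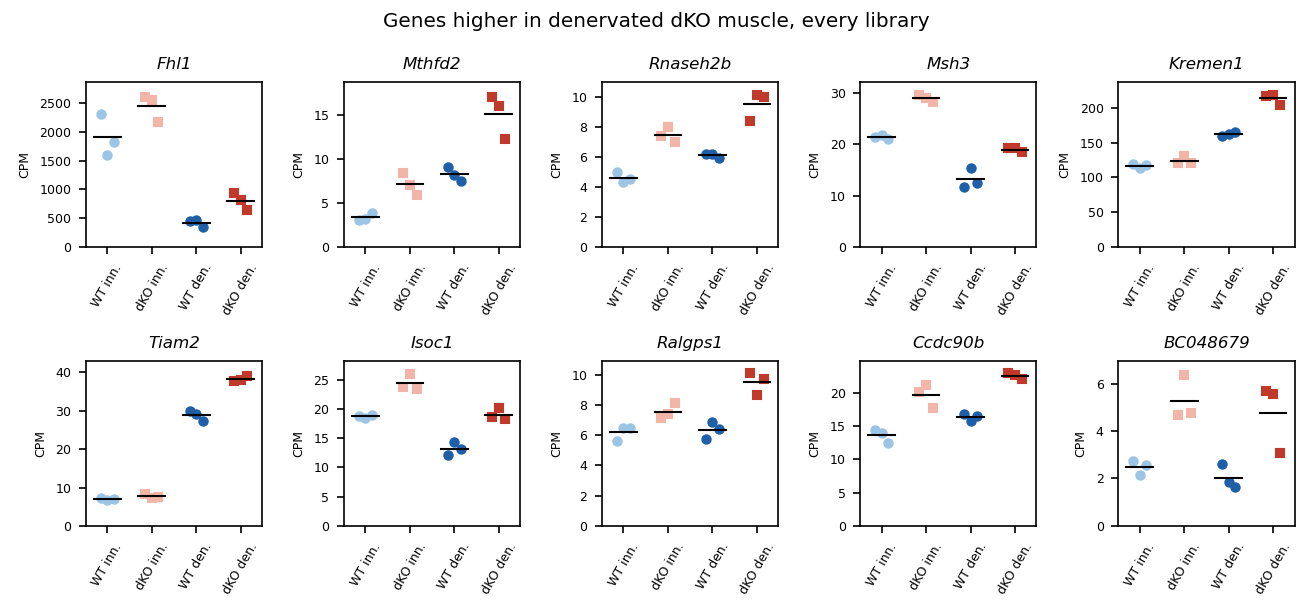
CPM in every library of the 4 groups, for the 10 higher genes without provisional names in the deposited counts. Circles are WT, squares dKO, pale innervated, dark denervated, and bars the mean of 3. In the denervated groups each dKO square lies above each WT circle, and Fhl1 and Tiam2 also differ strongly between innervated and denervated legs.

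Lower genes covered several roles, and 2 of them regulate muscle itself. Dach2 (ENSMUSG00000025592, X chromosome), a transcriptional corepressor known in muscle for holding down myogenin, was at 2.16, 1.60 and 1.63 CPM in WT and 0.950, 0.480 and 0.519 CPM in dKO. It fell by 1.46 (SE 0.23, edgeR adjusted p = 0.0181), to 36.3% of WT, and its adjusted p was 0.117 without dKO library 2, 0.062 without dKO library 3, 0.0555 without WT library 1 and 0.0681 without WT library 3. Mstn (ENSMUSG00000026100, chromosome 1) encodes myostatin, the secreted inhibitor of muscle growth. Its WT libraries were at 39.5, 66.0 and 61.5 CPM and its dKO libraries at 30.5, 25.6 and 32.1 CPM. The first WT library sits closest to the dKO group, and Mstn fell by 0.92 (SE 0.17, edgeR adjusted p = 0.0455). With that library left out the value was −1.10 (edgeR adjusted p = 0.00428), while leaving out any of the other 5 gave adjusted p from 0.0736 to 0.228. Mstn is the 1 called member of 29 ubiquitin ligase and growth regulator genes, whose median was −0.065. Gdf11, its closest relative, had a value of −0.26 that did not pass (edgeR adjusted p = 0.408).

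The steadiest decreases were in 2 membrane-associated genes. Ctnna3 (ENSMUSG00000060843, chromosome 10), alpha-T-catenin of adhesion junctions, was at 9.22, 9.55 and 10.9 CPM in WT and 4.57, 3.87 and 4.14 CPM in dKO. It fell by 1.24 (SE 0.12, edgeR adjusted p = 0.00121), to 42.5% of WT. Plekhb1 (ENSMUSG00000030701, chromosome 7), a membrane protein with a pleckstrin homology domain, was at 27.8, 28.7 and 29.5 CPM in WT and 13.4, 13.1 and 16.3 CPM in dKO. It fell by 1.01 (SE 0.11, edgeR adjusted p = 0.00157). These genes and H2afv were called under all 22 alternatives, the fit of the 6 denervated libraries alone included. Ctnna3 stood alone among its group: of 25 tested adhesion and junction genes it was the 1 called, and the list's median was −0.002. Jup, the plakoglobin of desmosomes and adherens junctions, had a value of 0.21 that did not pass (edgeR adjusted p = 0.536).

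Hnmt, which inactivates histamine by methylation, was at 2.18, 2.95 and 3.00 CPM in WT and 0.661, 0.945 and 1.09 CPM in dKO. It fell by 1.59 (SE 0.20, edgeR adjusted p = 0.00433), the largest decrease after H2afv among named genes of at least 1 CPM. Hnmt was the 1 called gene of 20 in amine and histamine metabolism. Maoa, the monoamine oxidase A gene, had a value of −0.42 (edgeR adjusted p = 0.101) and the list median was 0.01.

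Transcription and chromatin genes were represented by Tle6 and Mier2. Tle6, a Groucho-family corepressor, was at 3.97, 3.26 and 3.46 CPM in WT and 1.74, 1.38 and 1.44 CPM in dKO (−1.23, SE 0.15, edgeR adjusted p = 0.00388). Mier2, which binds histone deacetylases, was at 9.72, 8.77 and 8.62 CPM against 4.90, 5.16 and 6.19 CPM (−0.74, SE 0.12, edgeR adjusted p = 0.0194). Mier2 was not called without dKO library 1 or 2 or WT library 1 or 3 (adjusted p up to 0.136). Of 27 Wnt and TLE signalling genes tested, Tle6 was lower and Kremen1 higher, and the median was −0.031.

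Cytoskeletal transport was represented by Kif3c, a kinesin-2 motor, at 62.9, 54.2 and 59.8 CPM in WT and 40.8, 34.6 and 35.0 CPM in dKO. It was among the most abundant of the lower genes and fell by 0.68 (SE 0.09, edgeR adjusted p = 0.00542), with an adjusted p of 0.0735 without dKO library 2. The gene 1110002L01Rik overlaps its exons on the other strand and had a value of −0.01. Mtap9, a microtubule-associated protein, was at 2.41, 2.76 and 3.32 CPM in WT and 1.43, 0.875 and 1.45 CPM in dKO (−1.17). Ttc23, a protein of the primary cilium, fell by 0.80 (SE 0.10, edgeR adjusted p = 0.00419) from 9.13, 10.6 and 9.78 CPM to 5.83, 5.25 and 5.86 CPM. The far more abundant Synm, which overlaps Ttc23 on the other strand, had a value of 0.01. Ap1s1, a subunit of the AP-1 clathrin adaptor, was lower by 0.89 on the log2 scale, at 8.60, 7.35 and 9.98 CPM in WT and 4.45, 4.18 and 5.32 CPM in dKO. With 1 library left out the edgeR adjusted p reached 0.138 for Mtap9 and 0.228 for Ap1s1.

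A set of 3 genes known from neurons, Cntnap2, Snph and Syt3, was low in both genotypes and lower in dKO. Cntnap2 (Caspr2), which gathers potassium channels in myelinated axons, was at 0.767, 1.38 and 1.2 CPM in WT and 0.248, 0.268 and 0.234 CPM in dKO. It fell by 2.16 (SE 0.25, edgeR adjusted p = 0.00371), from 58, 131 and 97 counts to 18, 19 and 18 counts. Snph (syntaphilin), which docks mitochondria on axonal microtubules, was at 79, 91 and 115 counts in WT and 22, 17 and 10 counts in dKO. It fell by 2.34 (SE 0.29, edgeR adjusted p = 0.00371). Syt3, a calcium-sensing synaptotagmin, went from 110, 132 and 125 counts to 46, 32 and 33 counts (−1.53, SE 0.23, edgeR adjusted p = 0.0178). All 3 have separate groups at under 2 CPM, where these counts limit the precision. They are the called members of 26 tested nerve-growth and axon genes, a list that was drawn up with earlier results of these data known. Over all tested genes 0.285% were called lower. The list's median was −0.125 in denervated and 0.04 in innervated legs, with 7 of 26 above 0 in denervated legs, where 49.3% of all tested genes were. Syt3 was not called without dKO library 2 or 3 or WT library 3 (adjusted p up to 0.114), while Cntnap2 and Snph were called without any 1 library. The summed level of 10 Schwann cell markers overlapped between genotypes, at 35.9 to 41.3 CPM in WT and 31.9 to 38.3 CPM in dKO, and its part in these decreases was not tested.

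The remaining lower genes have varied roles. Ccs, the chaperone that loads copper into superoxide dismutase 1, was at 13.5, 12.8 and 14.2 CPM in WT and 7.87, 7.75 and 8.83 CPM in dKO (−0.73, SE 0.09, edgeR adjusted p = 0.00371). Fn3k, a kinase that removes sugar adducts from proteins, was at 2.70, 3.72 and 3.68 CPM against 2.02, 1.76 and 1.77 CPM (−0.86, SE 0.13, edgeR adjusted p = 0.0181). Enox2, a cell-surface NADH oxidase, was at 23.2, 21.3 and 29.3 CPM against 10.2, 14.9 and 15.9 CPM (−0.85, SE 0.16, edgeR adjusted p = 0.0455). Groups were separate for all 3, with the widest spread in Enox2. With 1 library left out the adjusted p reached 0.114 for Fn3k and 0.158 for Enox2, while Ccs stayed called. The lysosomal hydrolases Dpp7 (−0.66) and Aga (−0.63) were both lower, as were Fbxo44, an F-box subunit of ubiquitin ligases (−0.90), and Extl2, a glycosyltransferase acting on the glycosaminoglycan linker (−0.76). Car11, a carbonic anhydrase-like protein without catalytic activity, fell by 1.26 from 3.65, 2.22 and 2.90 CPM to 1.43, 1.19 and 1.04 CPM. Ppp1r26, a regulator of protein phosphatase 1, was at −0.76, the vitamin K-dependent membrane protein gene Prrg2 at −0.65, and the WW-domain-binding gene Wbp1 at −0.66 on the log2 scale. Tmem141 (−0.83) and BC048355 (−1.12, Dnph1 in the GENCODE M21 annotation) have no role given here. With H2afv, they complete the 25 lower genes of at least 1 CPM with the largest differences. A further 14 such genes lay between −0.62 and −0.38, and 9 lower genes had a mean under 1 CPM. In the deposited counts 2 of the 49 have provisional names, 1 of them among those 9. The other, 2610019F03Rik, is Tdrp in the GENCODE M21 annotation. Aga (edgeR adjusted p = 0.0497) and Prrg2 (0.0469) lay at the edge of the threshold. Dpp7, Aga, Fbxo44, Extl2, Car11, Ppp1r26, Prrg2, Wbp1, Tmem141 and BC048355 each lost the call when single libraries were left out. The edgeR adjusted p then reached 0.249 for Aga, 0.228 for Prrg2, 0.211 for Ppp1r26 and 0.114 to 0.15 for the others.

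**Figure D3:**
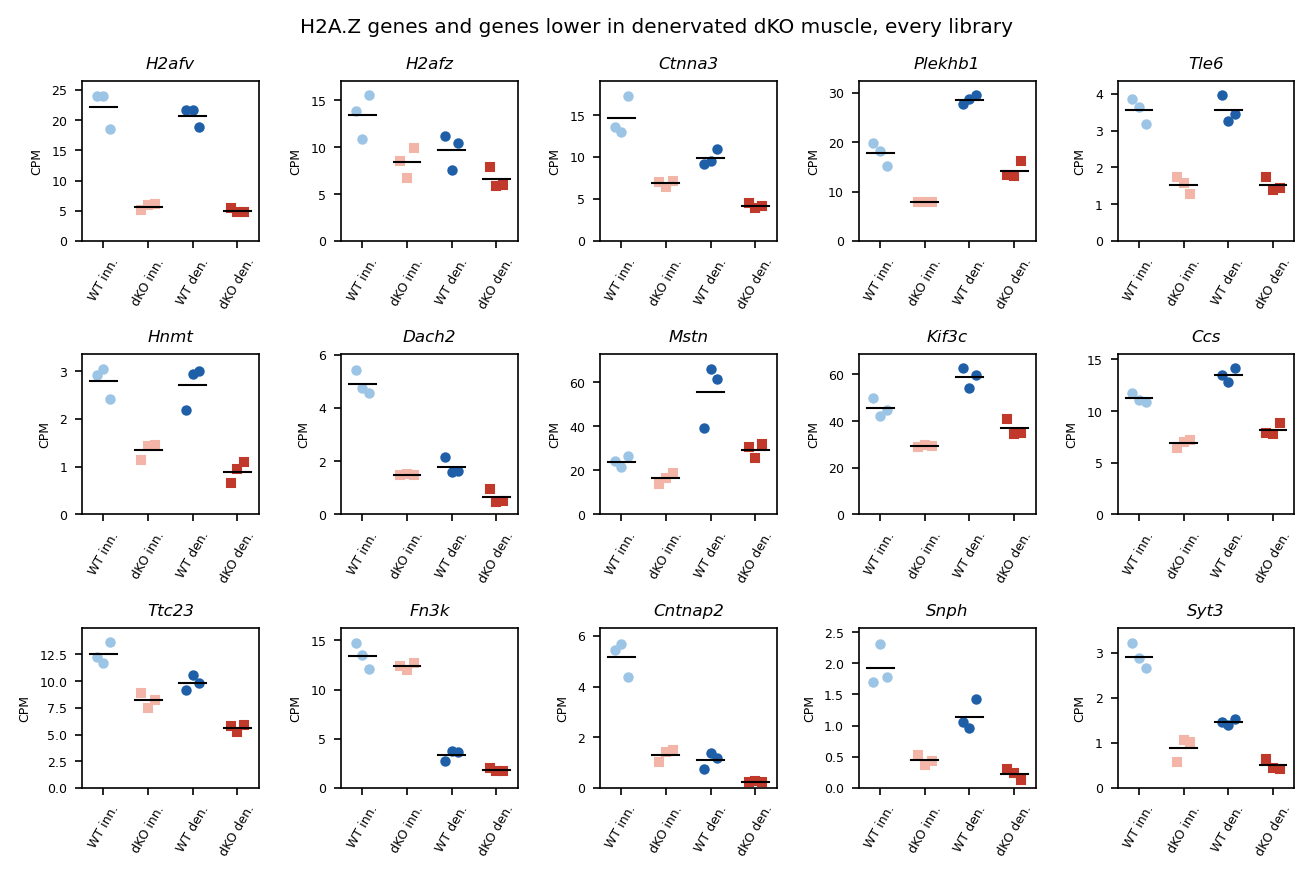
CPM of the 2 H2A.Z genes and 13 lower genes in every library of the 4 groups (circles WT, squares dKO, pale innervated, dark denervated, bars the mean of 3). Denervated groups are separate for every gene except H2afz, and Fn3k differs from most of the others in that its innervated groups lie close together.

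The innervated legs show how far these differences need the loss of the nerve. They are other libraries, but legs of equal number in a genotype varied together (r = 0.189 to 0.514) and may come from the same animals. Legs of other numbers in a genotype were at −0.406 to 0.096. Libraries of different genotypes, which cannot share an animal, reached r = 0.57, so such an r alone does not show a shared animal. There the same fit called 79 genes (0.459% of those tested), and 44 of these were not called in denervated legs. Of the 49 genes lower in denervated dKO muscle, all 49 had negative values in innervated legs too, 44 with an unadjusted p below 0.05 (5.09% of tested genes had a lower value with such a p) and 32 called lower (0.314%). Of the 13 higher genes, 12 had positive values, 9 with an unadjusted p below 0.05 (background 5.45%) and 3 called higher (0.145%), namely Mthfd2, Rnaseh2b and Ccdc90b. The median over the lower genes apart from H2afv was −0.80 in denervated and −0.73 in innervated legs. For the higher genes it was 0.58 in denervated and 0.38 in innervated legs, where the denervated values are those by which the genes were chosen.

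Single genes illustrate the stable part. Ctnna3 was at 13.6, 13 and 17.3 CPM in innervated WT and 7.03, 6.44 and 7.09 CPM in innervated dKO legs (−1.09), beside −1.24 after denervation. Plekhb1 was at 19.8, 18.2 and 15.2 CPM against 7.83, 7.90 and 7.85 CPM (−1.17), beside −1.01. Cntnap2 was at 5.46, 5.68 and 4.37 CPM against 1.04, 1.4 and 1.5 CPM (−1.98), beside −2.16. In each of these the innervated groups are as separate as the denervated ones.

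Whether a genotype difference was itself larger in denervated legs was tested as an interaction. No gene was called by edgeR (0 of 17201), and 374 (2.17%) had an unadjusted p below 0.05, beside about 860 by chance. With limma-voom and an estimated leg correlation 711 genes had such a p. The edgeR fit takes the legs as independent and gave fewer such p-values than chance. Its count of 0 therefore does not show equal genotype differences in both legs. DESeq2 and limma-voom also called 0, and edgeR without a filter on low counts called 2, Cxcl10 and SNORA53, neither among the 62. Among the 62 genes, 8 had an unadjusted interaction p below 0.05, all with an adjusted p of 1. The smallest was that of 1300002K09Rik, at 0.147, 0.183 and 0.189 CPM in innervated WT and 0.150, 0.104 and 0.138 CPM in innervated dKO legs (interaction 1.77, SE 0.36, unadjusted p = 0.000274). Fn3k was at 14.7, 13.5 and 12.1 CPM in innervated WT and 12.4, 12 and 12.7 CPM in innervated dKO legs (−0.12), beside −0.86 after denervation. Its innervated groups overlap, while its denervated groups do not. In innervated and denervated legs, the genotype values were 0.09 and 0.40 for Kremen1, −0.23 and −0.85 for Enox2, 0.14 and 0.41 for Tiam2 and 0.35 and 0.92 for Fhl1. Unadjusted edgeR interaction p-values were 0.00123 for Fn3k, 0.00682 for Kremen1, 0.0182 for Enox2, 0.0237 for Tiam2 and 0.0297 for Fhl1. None of these is shown to depend on denervation.

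**Figure D4:**
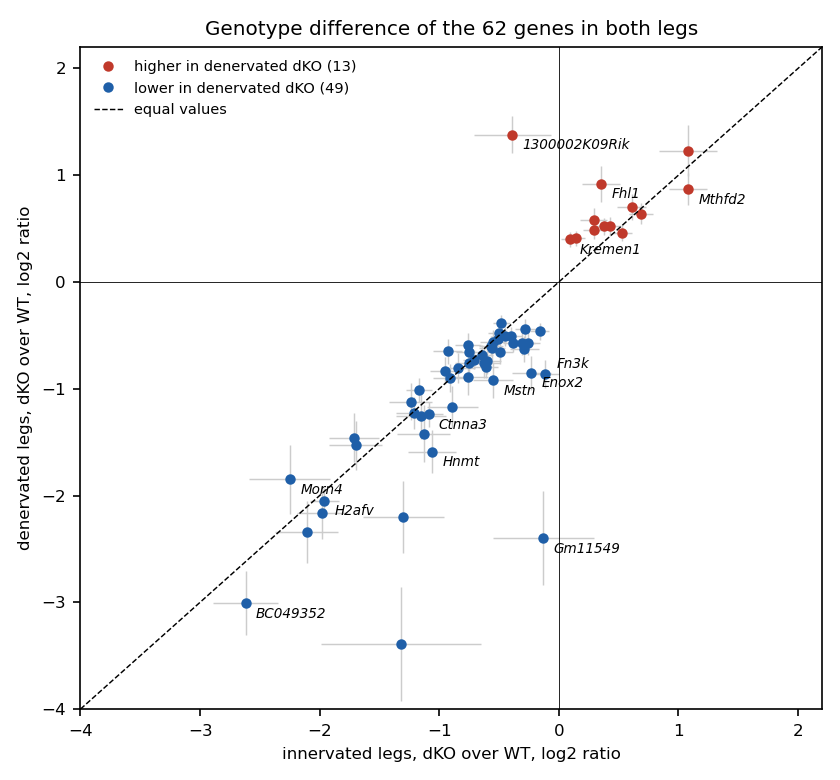
Log2 ratio of dKO over WT in innervated (horizontal) and denervated legs (vertical) for the 62 genes, with standard errors as bars and the line of equal values dashed. All blue points lie left of 0, and 1300002K09Rik is the red point left of 0.

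The same genes responded to denervation in different ways. Each response below shares its denervated libraries with the genotype comparison, so the values are given side by side only, WT first and dKO second, as log2 of denervated over innervated legs. Fhl1 fell in both genotypes, by 2.18 and by 1.61, from 1910 ± 359 and 2440 ± 231 CPM (SD, n = 3). In WT, 23.1% of tested genes were called higher and 21% lower after denervation. Tiam2 rose by 2.03 and 2.30, Enox2 by 1.63 and 1.01 and Mstn by 1.21 and 0.84. The rise of Mstn ended at 55.7 ± 14.1 CPM in WT and 29.4 ± 3.37 CPM in dKO. Dach2 fell by 1.46 and 1.21, Cntnap2 by 2.2 and 2.38 and Fn3k by 1.99 and 2.74. Mthfd2 rose by 1.29 and 1.08, so its dKO level in innervated legs, 7.14 ± 1.26 CPM, was near the denervated WT level of 8.23 ± 0.775 CPM. Tle6 was not called in either genotype, at 0.00 and −0.01, and Hnmt had values of −0.04 in WT, not called, and −0.57 in dKO, called lower (edgeR adjusted p = 0.0428).

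The classical denervation genes themselves did not pass between genotypes. Myog, the myogenic factor induced by nerve loss, was at 361, 243 and 249 CPM in WT and 307, 369 and 303 CPM in dKO (0.20, SE 0.16). Chrna1, the receptor alpha subunit, was at 100, 143 and 129 CPM against 123, 137 and 160 CPM (0.17, SE 0.16). Musk, the synaptic kinase, was at 225, 180 and 170 CPM against 222, 221 and 194 CPM (0.15, SE 0.13). In each the libraries of both genotypes are intermixed. Chrnd (0.02), Runx1 (−0.02), Gadd45a (0.16) and Myod1 (0.32) likewise did not pass, nor did Chrng, which was at 3.61, 2.05 and 5.55 CPM against 1.76, 1.58 and 5.75 CPM. Myod1 depended on single libraries, with −0.04 without dKO library 2 and 0.72 without WT library 1. The atrophy ligases Fbxo32 (953, 1260 and 922 CPM against 1380, 865 and 687 CPM) and Trim63 (939, 1120 and 947 CPM against 1280, 903 and 617 CPM) had a wide dKO spread, with a value of −0.10 each (SE 0.30 and 0.23). Without dKO library 1 these were −0.42 and −0.39. Of 27 synapse and denervation genes tested, only Dach2 passed, and the median was 0.083. A p that misses the threshold leaves room for differences within these errors.

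Several large sets lay slightly but evenly above 0 without any gene passing. All 44 cytosolic ribosomal protein genes had values above 0, with a median of 0.197, and 21 had an unadjusted p below 0.05 (4.61% of tested genes did so with a higher value). All 47 oxidative phosphorylation genes (median 0.159, 9 with such a p), all 31 proteasome genes (0.169, 9 with such a p) and all 30 citrate cycle and fat oxidation genes (0.114, 7 with such a p) did likewise. Over all tested genes the median was −0.003 and 49.3% were above 0. Members of such sets vary together within a library, so the evenness of the signs is not evidence from separate genes. The per-library medians of the oxidative phosphorylation set, relative to the mean of the 6, were −0.03, −0.07 and −0.11 in WT and 0.11, 0.13 and −0.01 in dKO. For the ribosomal set they were 0.00, −0.10 and −0.19 in WT and 0.00, 0.20 and 0.10 in dKO. The highest WT and lowest dKO libraries nearly touch in both sets. In the other sets the genotypes overlapped. The proteasome medians were 0.09, −0.19 and −0.16 in WT and 0.14, 0.10 and 0.02 in dKO. Those of the citrate cycle and fat oxidation set were −0.05, 0.00 and −0.13 in WT and 0.09, 0.13 and −0.01 in dKO. The same sets had medians of 0.161 (ribosomal), 0.135 (oxidative phosphorylation) and 0.107 (proteasome) in innervated legs, and the proteasome median in denervated legs was 0.296 without WT library 1. The 11 mitochondrially encoded genes had a median of 0.18 that shrank to 0.024 without WT library 1 and was 0.383 without WT library 2.

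Other lists held no called gene. Members of the complexes that deposit or remove H2A.Z had a median of 0.008 over 24 genes, with values of 0.28 for Yeats4 and 0.31 for Meaf6, subunits of the TIP60 complex, not passing. Of 12 tested genes on the list of other replacement and variant histones 10 were above 0, among them H3f3b (0.27), one of the H3.3 genes. Hist1h2be (0.70) was on this list too, although it is an H2B gene of the Hist1 cluster and not a replacement variant. Sarcomere lists were mixed. Among 15 thick filament and M line genes the slow genes Myl3 (1.04) and Myh7 (−1.01) had opposite values, and neither passed. Among 26 thin filament and Z disc genes Lmod2, a leiomodin of thin filaments, was closest to the threshold at 49.7, 45.7 and 41.7 CPM against 76.3, 66.5 and 61.4 CPM (0.57, SE 0.12, edgeR adjusted p = 0.0588). Of 28 proliferation genes, Gins1, a replication factor, was nearly called (1.03, edgeR adjusted p = 0.0539), at 1.65, 1.41 and 1.26 CPM against 2.48, 3.23 and 3.10 CPM, while 9 of the 28 were above 0 at a median of −0.148. Excitation-contraction coupling (25 genes, median 0.024), glycolysis and glycogen (22, 0.048), autophagy and lysosome (24, 0.059), p53 targets (18, −0.024) and the circadian clock (17, 0.09) held no called gene either. The autophagy and lysosome list leaves out Dpp7 (−0.66) and Aga (−0.63), the lysosomal hydrolases called lower above, so it does not cover all lysosomal genes.

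**Figure D5:**
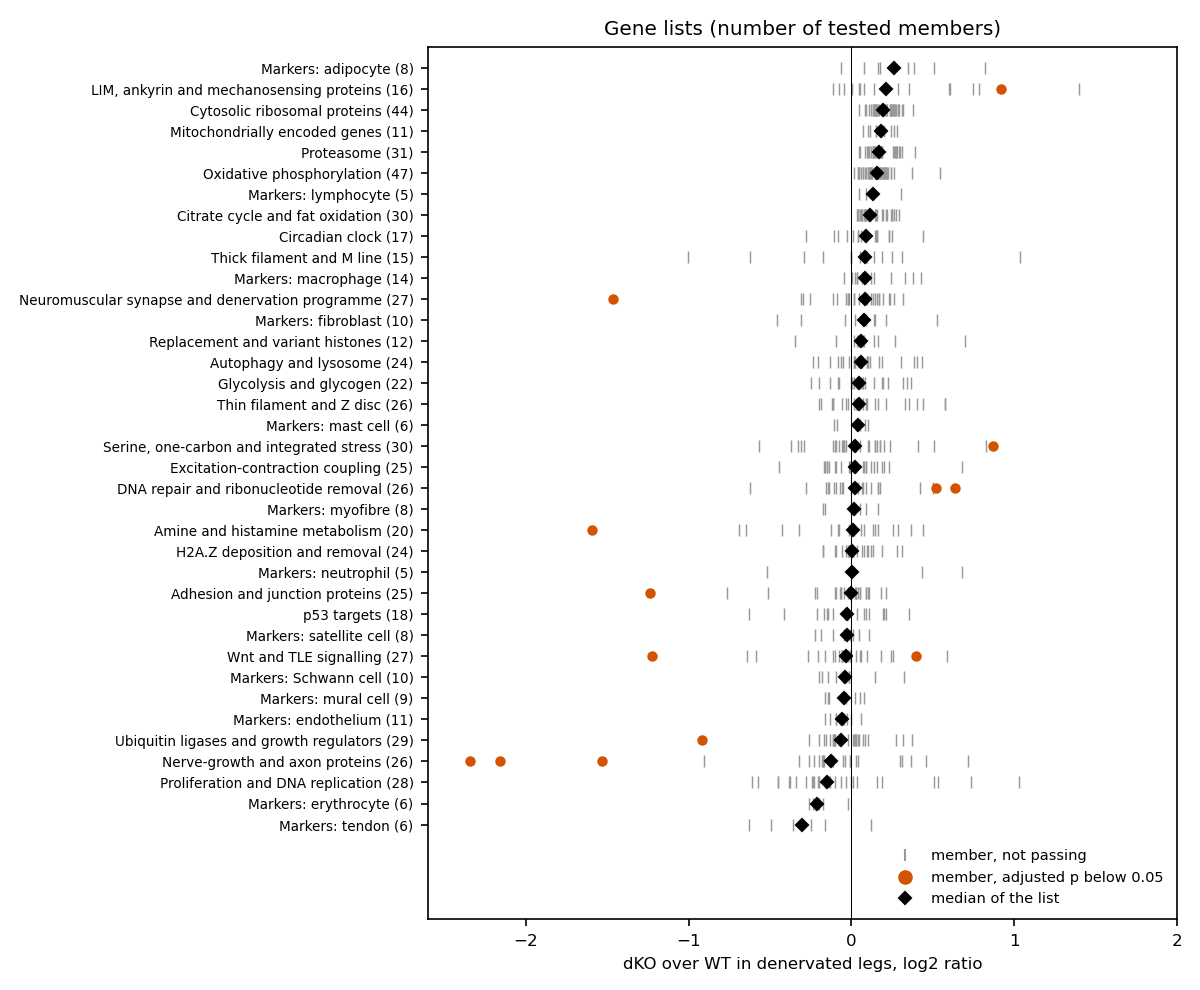
Log2 ratio of dKO over WT in denervated legs for every tested member of the gene lists (ticks), with called members as orange points and the list's median as a black diamond. Most called genes lie at the edge of their lists, while Csrp3 lies beyond Fhl1 in the LIM list, and the ribosomal, oxidative phosphorylation, proteasome and citrate cycle lists lie wholly right of 0.

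Markers of the cell types in the muscle were compared as sums of CPM. Myofibre markers summed to 192000 to 197000 CPM in WT and 188000 to 206000 CPM in dKO, which matches the labelled tissue. In whole muscle, fewer cells of a type and less RNA per cell cannot be told apart. Of 13 marker lists the neutrophil list alone had separate sums, at 14.3 to 24.5 CPM in WT and 25.6 to 34.2 CPM in dKO. Its defining genes Ly6g and Ngp were at 0 in all 6 libraries, and most of the sum was S100a8, at 19.0, 20.4 and 9.64 CPM in WT and 28.9, 22.3 and 27.4 CPM in dKO (0.68, edgeR adjusted p = 0.354). Macrophage sums overlapped (185 to 213 against 196 to 241 CPM), as did those of satellite cells (103 to 110 against 101 to 107 CPM), endothelium (609 to 688 against 590 to 637 CPM) and fibroblasts (3120 to 5280 against 3280 to 3740 CPM). Medians over the members of a list, per library and relative to the mean of the 6, gave another picture. By these the neutrophil groups overlapped and the tendon groups alone were separate. The tendon medians were 0.04, −0.01 and 0.55 in WT and −0.19, −0.23 and −0.07 in dKO. In the macrophage list 13 of 14 genes had values above 0 and in the endothelium list 1 of 11, against 49.3% of all tested genes. No marker of any of the 13 lists was called, and the part of cell composition in the results was not tested.

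The 62 genes were spread over the genome, and chromosome 7 held the largest number (9 of 1211 tested genes, 0.743%), at a share below those of chromosome 10 (0.778%) and chromosome 19 (0.758%). Pairs of neighbouring called genes within 1 Mb were few. Dpp7 and Tmem141 lie 264 kb apart on chromosome 2, both lower, with 13 tested genes between them. Wbp1 and Mthfd2 lie 184 kb apart on chromosome 6 and moved in opposite directions. Prrg2 lies between Syt3 (653 kb) and Car11 (637 kb) on chromosome 7, and all 3 were lower. Of the 62 genes, 7 have the start of a protein-coding gene on the other strand within 1000 bases of their own (7.69% of higher and 12.2% of lower genes, against 9.6% of all tested genes), and none of the 6 such neighbours that were tested was called. For example, Extl2 was lower by 0.76 on the log2 scale, while Slc30a7, whose start is 56 bases away, had a value of 0.04, and Mthfd2 was higher by 0.87 while Mob1a, 108 bases away, had a value of −0.04. Of the 62 genes, 14 have an exon that overlaps a gene on the other strand (22.6%, against 30.1% of tested protein-coding genes), and none of the 9 tested partners was called. The median gene span was 14.5 kb for lower and 38.3 kb for higher genes, against 24.9 kb over all tested protein-coding genes.

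The authors' deposited table, read for the same comparison with its sign turned to dKO over WT, holds 292 genes with an adjusted p below 0.05, of which 133 are higher and 159 lower. The 59 genes shared with the 62 called here are 95.2% of the latter and 20.2% of the genes called in the authors' deposited table, and all 59 have the same sign. The other 3, Ano3, Gm11549 and Tmem102, have no adjusted p in the authors' deposited table and are named here after their values were seen. The header above those p-values repeats that of the innervated comparison, and the columns were read by their place beside the denervated log2 values. Both calls start from the same counts, so their overlap is no independent check.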

How the data were processed

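Total RNA of whole tibialis anterior was sequenced from ribosomal-RNA-depleted, strand-specific libraries. Per the submitters' processing notes, bcl2fastq 2.17.1.14, TopHat2 2.0.14, Bowtie and HTSeq 0.6.1 were used with the mm9 build, while the sources used here give neither the annotation release nor the strand setting of counting. The authors deposited raw read counts per gene for all 12 libraries in 4 groups, beside a normalised signal divided by gene length (per the file headers). They also deposited log2 fold changes and p-values of their own comparisons, used here only where the authors' deposited table is named.

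Counts were tested with edgeR 4.0.16 in R 4.3.3 (TMM scaling, filterByExpr by group, quasi-likelihood test, Benjamini-Hochberg adjustment over 17201 genes), with 4 group means over 12 libraries and 8 residual degrees of freedom. DESeq2 1.42.0 and limma 3.58.1 served as alternatives, and the test was checked on simulated data. The genes tested held 99.975% of counts. CPM values use TMM-scaled library totals of 68488996 to 87753152 counts before scaling, and 3 counts equal 0.0342 to 0.0438 CPM in the denervated libraries.

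The members and gene lists were chosen with earlier results of these data known, so list counts are not independent evidence. Named were the called genes of at least 1 CPM with separate groups (up to 15 higher and the 25 lower with the largest change), called list members, the 2 smallest p-values of lists without a call, and 12 denervation genes as levels. Predicted and sex-linked genes were to be counted only, which was read, after values were seen, as Y-linked genes and Xist. Csrp3, Shmt1, Gdf11, Jup, Maoa, Poll, Obfc2b, 3200002M19Rik, 2010012O05Rik, 2610019F03Rik and the overlapping and neighbouring genes were chosen after their values were seen. Positions come from GENCODE M21 (GRCm38) matched by gene identifier, and near-identical copies were searched with BLAST 2.17.0+ (at least 98% identity over 50% of a transcript). Promoter windows come from RefSeq.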

Additional observations from a re-analysis of the deposited data

How the results depend on the processing

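All 62 genes kept their direction under all 22 alternatives, which largely follows from their separate groups. Of them, 3 (H2afv, Ctnna3 and Plekhb1) were called under each. The main count of 62 genes in denervated legs (13 higher, 49 lower) became 289 with DESeq2 (131 higher, 158 lower), 252 with no filter on low counts (108, 144), 106 with a GC trend removed (29, 77), 79 with limma-voom and an estimated leg correlation of 0.274 (25, 54), 79 with robust dispersions (20, 59), 52 with median-of-ratios scaling (12, 40), 16 when tested against a fold of 1.2 (1, 15) and 4 with the 6 denervated libraries alone (1, 3). In innervated legs the count of 79 became 264 with DESeq2, 240 with no filter, 101 with the GC trend removed and 60 with limma-voom. The interaction count was 0 except for 2 genes with no filter. Leaving out 1 library gave 11 to 54 genes in denervated legs (1 to 15 higher, 10 to 39 lower), 27 to 113 in innervated legs and 0 for the interaction. The causes of these shifts were not tested, beyond the fewer libraries in the smaller fits.

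A model with the replicate block called 87 genes in denervated legs (28 higher, 59 lower) and 82 in innervated legs, and with the GC trend removed as well 135 (46, 89) and 114. Legs of equal number varied together within a genotype (r = 0.189 to 0.514 over 12649 genes, against −0.406 to 0.096 for other numbers). WT and dKO libraries of equal number did not (−0.42 to 0.402 for equal and −0.37 to 0.57 for other numbers), so the samples compared here share only a number. Over single called genes, 857 of the repeated values stayed on their side of the threshold, 507 lost the call and 0 reversed. Even at 68488996 counts or more, depth limits the genes under 1 CPM.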
